A study of Mus musculus with 10 samples.

Results

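Interferon-stimulated genes are the antiviral and signalling genes that cells switch on when interferon reaches them. Here, 41 mouse genes listed under that name were followed in liver cells labelled EP300 KO and EP300 WT. The list was given by name, and all 41 were among the 55385 identifiers of the count table. They were sorted by role into 5 transcription factors, 5 nucleic acid sensors, 6 oligoadenylate synthetases, 4 IFIT proteins, 6 genes of ISG15 and ubiquitin-like signalling, 10 other direct effectors and 5 interferon-inducible GTPases.

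The series holds 10 RNA-seq libraries from mouse liver, and the 4 used here are 2 labelled EP300 KO and 2 labelled EP300 WT. EP300 encodes a histone acetyltransferase that acts as a transcriptional coactivator, and the comparison asks how its loss in hepatocytes changes transcript levels. All 4 libraries, whose titles carry the label HCC, came from hepatocytes of EP300f/f mice on a mixed C57BL/6J and 129SV background. The mice were fed DDC, a diet that injures liver and bile ducts. They received the pT3-cMet plasmid (20 µg per mL in the labels) by hydrodynamic tail vein injection, with tissue taken at 5 months. The EP300 KO mice were given AAV-TBG-Cre and carry the genotype label EP300-/-, while the EP300 WT mice were given AAV-TBG-GFP. TBG is a promoter that is active in hepatocytes, so other liver cells keep the gene. The perfused cells were sorted by flow cytometry, with no gate stated, and the labels mention pooled sequencing and tie no library to an animal. The p-values therefore rest on how these libraries differ within a group, and those differences may be technical only.

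In the textbook pathway, type I and type III interferons bind their receptors and activate the kinases JAK1 and TYK2, which phosphorylate STAT proteins, STAT2 among them. Together with IRF9 these make up the factor ISGF3, which binds the interferon-stimulated response element (ISRE) in the promoters of the induced genes. Interferon gamma acts through its own receptor, JAK1 and JAK2, and through GAS elements. The induced proteins include sensors of viral RNA and DNA, enzymes that degrade or block viral RNA, ubiquitin-like modifiers and GTPases that attack the membranes around intracellular microbes.

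Most effector genes were lower in the EP300 KO libraries, while the 5 transcription factors among the members were mostly close to their EP300 WT level. STAT and IRF factors and brakes outside the members had a median log2 fold change (KO minus WT) of -0.27. The contrast between classes was not tested. Of the 41 members, 25 fell and 1 rose at an adjusted p below 0.05 in edgeR's quasi-likelihood test, and 15 did not pass. Among all 14200 genes tested, 17.5% fell and 16.7% rose, so the members' share of falls stands above the background and their share of rises below it. The members were chosen with earlier results of these data known, so this comparison is not independent of the choice. A fall of at least 2-fold was seen in 13 members, against 5.01% of the genes tested. The median log2 fold change (KO minus WT) was -0.50 over the members, with a range from -3.53 to 0.55, and -0.01 over all genes tested. Summed over the members, the level was 1098 and 1101 CPM (counts per unit of library size after TMM scaling) in the WT libraries and 785 and 857 CPM in the KO libraries. All 41 members passed the filter on low counts.

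**Figure D1:**
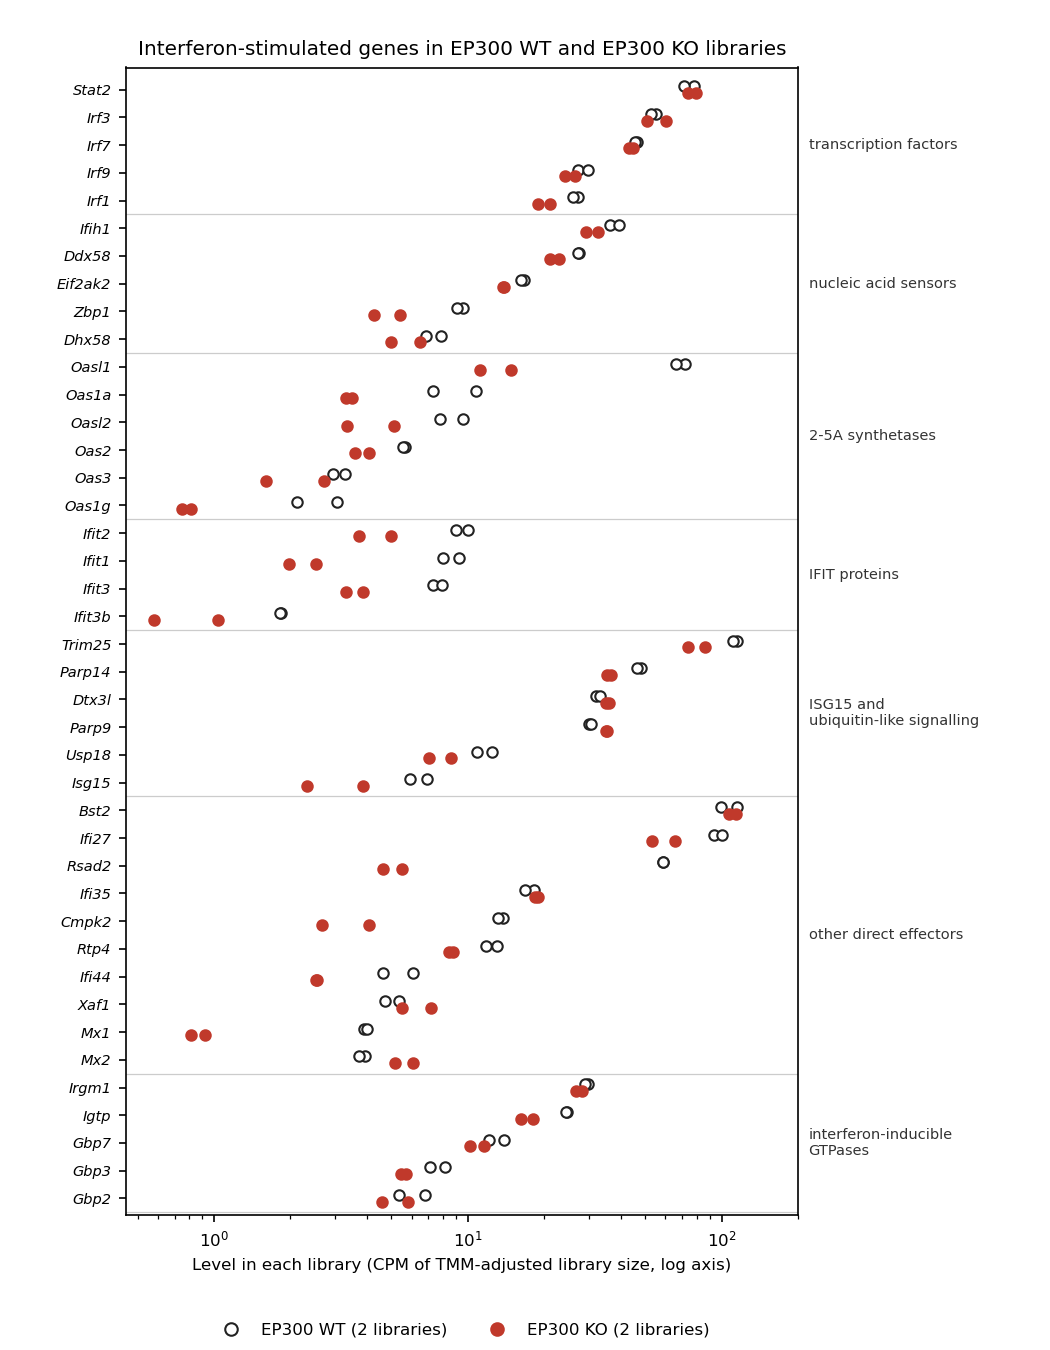
Level of each member in each library (x axis, CPM on a log axis), with open points for the 2 EP300 WT libraries and filled points for the 2 EP300 KO libraries, grouped by role. The KO points of Rsad2 and Oasl1 lie far to the left of their WT points, while those of Stat2, Irf3 and Bst2 overlap them.

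The libraries held 17709799 to 18831671 counts. Ep300 itself was at 62.3 and 57.9 CPM in the WT libraries and 73.7 and 72.3 CPM in the KO libraries, higher by 0.28 ± 0.07 (SE) on the log2 scale (adjusted p = 0.00498 in edgeR, and 0.128 without WT replicate 2), so the gene-level count gives no check of the KO label, and it cannot show the deletion of an exon. Xist had 3 and 2 counts in the WT libraries and 2310 and 1411 in the KO libraries, and Y-linked Ddx3y had 1079 and 1077 against 954 and 813 counts. The sex makeup of the libraries and the EP300 label cannot be told apart. The 8 hepatocyte markers summed to 106220 and 105559 CPM in the WT libraries and 95288 and 99056 CPM in the KO libraries, with 3 lower, 3 higher and a median log2 fold change of 0.10.

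Markers of other liver cells were also present, and some were lower in the KO libraries. The counts of calls stand beside 17.5% of all genes tested that fell and 16.7% that rose. In a bulk library, fewer cells of a type and less RNA per cell cannot be told apart. Of 15 macrophage and Kupffer cell markers, 6 fell and 3 rose, with a median log2 fold change of -0.05, and they summed to 1456 and 1448 CPM in WT and 1274 and 1298 CPM in KO. Of 10 endothelial markers, 7 fell (median -0.53; 365 and 358 CPM against 307 and 276 CPM). Of 9 stellate cell and fibroblast markers, 5 fell (median -0.39; 315 and 307 CPM against 205 and 198 CPM). Dendritic cell markers summed to 21.4 and 18.8 CPM in WT and 28.8 and 29.1 CPM in KO, and of the 4 of 8 that could be tested 1 rose and 0 fell. Siglech, which marks plasmacytoid dendritic cells, had 6 counts in each WT library and 7 in each KO library. Neutrophil markers summed to 18.9 and 21.4 CPM against 14.1 and 10.9 CPM (3 of 6 tested fell), lymphocyte markers to 25.5 and 24.3 against 19.5 and 18.6 CPM (1 of 2 tested fell), and cholangiocyte markers to 138 and 139 against 104 and 104 CPM (2 of 4 tested fell). No list was at 0 in all its genes, and the part of these cells in the members' changes was not tested.

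Among the 5 transcription factors, 1 fell and 4 did not pass, with a median log2 fold change of -0.06. This count and those of the role classes below stand beside 17.5% of all genes tested that fell and 16.7% that rose. With 5 genes, 1 fall is not read as different from that share. Stat2, the STAT subunit particular to ISGF3, was at 77.8 and 71.4 CPM in the WT libraries and 73.6 and 79.0 CPM in the KO libraries. Irf9, the DNA-binding subunit of ISGF3, was at 27.3 and 29.7 CPM in WT and 24.2 and 26.6 CPM in KO. The 2 groups overlapped for Stat2, whose log2 fold change was 0.03 ± 0.07 (edgeR adjusted p = 0.771). For Irf9 they lay close together without overlap, with -0.16 ± 0.09 (edgeR adjusted p = 0.184). Groups without overlap were also seen in other members that did not pass, Irf7 among them. With 2 libraries a group, values can lie apart without a difference between the groups. The share of all genes tested with such separation is not given here. Here and below, separation is therefore a description of the values and not support for a call.

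Irf7, the factor that amplifies interferon production, had 46.3 and 45.5 CPM in WT and 43.3 and 44.95 CPM in KO. Irf3, which is held in the cytoplasm until a sensor activates it, had 54.9 and 52.5 CPM in WT and 51.0 and 60.2 CPM in KO. Neither passed the test, with a log2 fold change of -0.06 ± 0.07 for Irf7 (edgeR adjusted p = 0.600) and 0.05 ± 0.08 for Irf3 (edgeR adjusted p = 0.689). Irf1, a factor induced by interferon gamma, had 27.1 and 26.1 CPM in WT and 18.9 and 21.0 CPM in KO. Both KO libraries were below both WT libraries, and Irf1 fell by 0.41 ± 0.09 on the log2 scale (edgeR adjusted p = 0.00295). Irf1 no longer passed without WT replicate 1 (edgeR adjusted p = 0.0782) or without WT replicate 2 (0.0649).

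Of the 5 sensors of viral nucleic acid, 3 fell and 2 did not pass, with a median log2 fold change of -0.32. Zbp1, a sensor of Z-form nucleic acid that can start necroptosis, had 9.58 and 9.04 CPM in the WT libraries and 4.28 and 5.40 CPM in the KO libraries. Its KO level was 52.1% of the WT level, a fall of 0.94 ± 0.16 on the log2 scale (edgeR adjusted p = 0.000323), the largest of the sensors. Ddx58, which encodes the RNA sensor RIG-I, had 27.5 and 27.2 CPM in WT and 22.8 and 21.1 CPM in KO. Ifih1, which encodes the long double-stranded RNA sensor MDA5, had 36.4 and 39.3 CPM in WT and 29.2 and 32.5 CPM in KO. For both genes the KO libraries lay below the WT libraries, by more than the libraries of a group differed from each other: Ddx58 fell by 0.32 ± 0.09 (edgeR adjusted p = 0.0122) and Ifih1 by 0.30 ± 0.09 (edgeR adjusted p = 0.0144).

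Both of these small falls were lost in DESeq2 on all 4 libraries, with an adjusted p of 0.0893 for Ddx58 and 0.0787 for Ifih1. Each also depended on the WT libraries, and that of Ifih1 on KO replicate 1 as well. The adjusted p of Ddx58 was 0.131 without WT replicate 1 and 0.130 without WT replicate 2 in edgeR, and that of Ifih1 was 0.0748, 0.243 and 0.0653 without WT replicate 1, WT replicate 2 and KO replicate 1. Dhx58, which encodes the regulatory helicase LGP2, had a log2 fold change of -0.36 ± 0.18 (edgeR adjusted p = 0.135, and 0.0235 without KO replicate 2). Eif2ak2, which encodes the translation-blocking kinase PKR, had -0.26 ± 0.11 (edgeR adjusted p = 0.0792).

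The oligoadenylate synthetases make the short adenylate chains that switch on RNase L, and 5 of the 6 fell, 4 of them by at least 2-fold. Their median log2 fold change was -1.21, and their summed level was 104 and 92.2 CPM in the WT libraries and 24.9 and 29.8 CPM in the KO libraries. Oasl1 (chr5:114923240-114937915, plus strand, mm10), a family member without synthetase activity that represses Irf7 translation in mice, accounted for most of that sum with 71.7 and 66.3 CPM in WT and 11.2 and 14.8 CPM in KO. Both KO libraries were far below both WT libraries, and the KO level was 18.8% of the WT level (log2 fold change -2.41 ± 0.11, edgeR adjusted p = 6.39e-11). On a per-length scale, Oasl1 had a mean of 26.5 RPKM (CPM per kilobase of exon) in WT and 4.97 RPKM in KO.

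Oas1a, an active synthetase, had 10.7 and 7.28 CPM in the WT libraries and 3.30 and 3.51 CPM in the KO libraries. Oas1g, its close paralog, had 3.05 and 2.13 CPM in WT and 0.810 and 0.747 CPM in KO. The WT libraries differed from each other in both genes, yet each KO value was below each WT value: Oas1a fell by 1.40 ± 0.21 on the log2 scale (edgeR adjusted p = 6.74e-05) and Oas1g by 1.73 ± 0.35 (edgeR adjusted p = 0.00107). In the annotation, 57.6% of the 50-base stretches of Oas1a transcripts also occur in another gene, mainly Oas1g, so reads could be split between the pair. Their sum fell by 1.47 ± 0.19 (edgeR adjusted p = 1.88e-05), from 13.8 and 9.41 CPM to 4.11 and 4.25 CPM.

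The other members of this family had smaller changes. Oasl2 fell by 1.03 ± 0.20 on the log2 scale (edgeR adjusted p = 0.000795, and 0.0552 without WT replicate 1). Oas2 fell by 0.54 ± 0.19 (edgeR adjusted p = 0.0369), a call lost without WT replicate 1, WT replicate 2 or KO replicate 1, where the adjusted p was 0.171, 0.170 and 0.141. Oas3, the member with the lowest per-length level of all 41 at 0.373 RPKM over the 4 libraries, had -0.52 ± 0.28 (edgeR adjusted p = 0.165, and 0.0239 without KO replicate 1).

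All 4 IFIT genes, whose proteins bind viral RNA ends or block translation, fell by at least 2-fold, with a median log2 fold change of -1.15. The 4 genes lie close together on chromosome 19, from Ifit2 at chr19:34550694-34576419 to Ifit1 at chr19:34640871-34650009 (mm10). Their summed level was 26.1 and 28.9 CPM in the WT libraries and 10.8 and 11.2 CPM in the KO libraries. Ifit1, which binds RNA that lacks cap methylation, had 8.004 and 9.20 CPM in WT and 1.97 and 2.53 CPM in KO. Ifit2, which promotes apoptosis in infected cells, had 8.95 and 9.98 CPM in WT and 4.98 and 3.74 CPM in KO. Both genes were lower in each KO library than in each WT library: Ifit1 was at 26.2% of its WT level (log2 fold change -1.93 ± 0.20, edgeR adjusted p = 1.75e-06) and Ifit2 at 46.0% (-1.12 ± 0.17, edgeR adjusted p = 0.000108).

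Ifit3b had 1.84 and 1.82 CPM in the WT libraries and 0.579 and 1.03 CPM in the KO libraries. It fell by 1.17 ± 0.37 on the log2 scale (edgeR adjusted p = 0.0219), and did not pass in DESeq2 (adjusted p = 0.130). At this low count the call was lost without WT replicate 1, WT replicate 2 or KO replicate 1, where the adjusted p was 0.142, 0.147 and 0.174. Ifit3, which stabilises IFIT1 on RNA in human cells, fell by 1.08 ± 0.18 (edgeR adjusted p = 0.000221). These paralogs share 51.2% of the 50-base stretches of Ifit3 with other genes, mainly with each other. The sum of Ifit3 and Ifit3b was 9.11 and 9.72 CPM in WT and 3.88 and 4.89 CPM in KO, and it fell by 1.102 ± 0.17 on the log2 scale (edgeR adjusted p = 8.80e-05).

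In ISG15 and ubiquitin-like signalling, 4 of 6 genes fell and 2 did not pass, with a median log2 fold change of -0.44. Isg15, the ubiquitin-like modifier itself, had 5.90 and 6.91 CPM in the WT libraries and 2.31 and 3.85 CPM in the KO libraries. Usp18, the protease that removes ISG15 from proteins and dampens the type I receptor, had 10.9 and 12.4 CPM in WT and 7.002 and 8.56 CPM in KO. Each was lower in both KO libraries: Isg15 fell by 1.05 ± 0.23 on the log2 scale (edgeR adjusted p = 0.00194) and Usp18 by 0.58 ± 0.14 (edgeR adjusted p = 0.00504). Without WT replicate 2 neither passed, with an adjusted p of 0.0946 for Isg15 and 0.137 for Usp18.

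Trim25, the ubiquitin ligase that activates RIG-I, was among the most abundant members, with 115 and 110 CPM in the WT libraries and 73.8 and 85.8 CPM in the KO libraries. It fell by 0.50 ± 0.07 on the log2 scale (edgeR adjusted p = 6.52e-05). Parp14, an ADP-ribosyltransferase, fell by 0.39 ± 0.08 (edgeR adjusted p = 0.000896). Parp9 and Dtx3l, which encode an ADP-ribosyltransferase and the ubiquitin ligase that binds it, did not pass and had positive log2 fold changes of 0.21 ± 0.08 (edgeR adjusted p = 0.0515) and 0.12 ± 0.08 (edgeR adjusted p = 0.292). Parp9 passed with DESeq2's size factors (edgeR adjusted p = 0.0472). The 2 genes start head to head on chromosome 16 and share 9.40% of the exon bases of Parp9, so without stated strand use their counts could mix there.

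The 10 other direct effectors held both the largest fall and the 1 rise that passed among the 41 members, with 6 lower, 1 higher and a median log2 fold change of -0.62. Rsad2 (chr12:26442746-26456452, minus strand, mm10) encodes viperin, an enzyme that makes a chain-terminating nucleotide, and had 59.0 and 58.5 CPM in the WT libraries and 4.63 and 5.52 CPM in the KO libraries. This was 1120 and 1126 counts against 80 and 96 counts, so that the KO level was 8.65% of the WT level. The fall was 11.6-fold (log2 fold change -3.53 ± 0.11, edgeR adjusted p = 6.33e-13). Per length, Rsad2 went from a mean of 13.6 RPKM in WT to 1.17 RPKM in KO.

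Cmpk2, a mitochondrial nucleotide kinase gene next to Rsad2, had 13.7 and 13.2 CPM in the WT libraries and 2.66 and 4.08 CPM in the KO libraries. The pair lies on opposite strands of chromosome 12, with 12751 bases between them, and Cmpk2 was at 25.1% of its WT level (log2 fold change -1.995 ± 0.18, edgeR adjusted p = 2.51e-07). Both neighbours were thus lower in each KO library than in each WT library.

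Mx1 and Mx2 belong to a family of dynamin-like GTPases that trap viral nucleoproteins, and they moved in opposite directions. The annotation lists Mx2 as a polymorphic pseudogene, and the counts of neither gene show that an active protein is made. Mx1 (chr16:97447035-97462907, minus strand, mm10) had 3.90 and 4.001 CPM in the WT libraries and 0.810 and 0.920 CPM in the KO libraries. Mx2, 72400 bases away on chromosome 16, had 3.95 and 3.74 CPM in WT and 6.08 and 5.17 CPM in KO. In neither gene did the groups overlap: Mx1 fell to 22.0% of its WT level (log2 fold change -2.18 ± 0.28, edgeR adjusted p = 1.89e-05) and Mx2 rose to 146% (0.55 ± 0.19, edgeR adjusted p = 0.0381). The rise of Mx2 was lost without WT replicate 1, WT replicate 2 or KO replicate 1 (edgeR adjusted p = 0.141, 0.197 and 0.162), with library size alone (0.0659) and in DESeq2 (adjusted p = 0.181). The fall of Mx1 held in each of these settings.

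Bst2, which encodes tetherin, the protein that holds budding virus on the cell surface, was the most abundant member per length, with a mean of 121 RPKM over the 4 libraries. It had 99.9 and 115 CPM in the WT libraries and 107 and 114 CPM in the KO libraries. The groups overlapped, and its log2 fold change was 0.03 ± 0.07 (edgeR adjusted p = 0.758). Ifi27, a small membrane protein gene and the next most abundant per length, had 93.3 and 100 CPM in WT and 53.1 and 65.3 CPM in KO. Ifi27 was lower in both KO libraries, at 61.2% of its WT level (log2 fold change -0.71 ± 0.09, edgeR adjusted p = 7.95e-06).

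Among the remaining effectors, Ifi44 fell by 1.08 ± 0.23 on the log2 scale (edgeR adjusted p = 0.00147, and 0.0567 without WT replicate 1). Rtp4, a receptor chaperone gene, fell by 0.53 ± 0.13 (edgeR adjusted p = 0.00458, and 0.106 without WT replicate 2). Xaf1, a partner of the apoptosis inhibitor XIAP, had 0.33 ± 0.19 (edgeR adjusted p = 0.198, and 0.0393 without KO replicate 1), and Ifi35 had 0.09 ± 0.10 (edgeR adjusted p = 0.542). Other annotated genes cover 13.9% of the exon bases of Rtp4 and 16.8% of those of Ifi35, which makes their counts less certain.

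The 5 interferon-inducible GTPases come from families that defend against intracellular microbes. Of these 5, 2 fell and 3 did not pass, with a median log2 fold change of -0.26. Igtp, an immunity-related GTPase, had 24.6 and 24.3 CPM in the WT libraries and 16.1 and 17.99 CPM in the KO libraries. Gbp3, a guanylate-binding protein gene, had 8.16 and 7.12 CPM in WT and 5.73 and 5.46 CPM in KO. Both were lower in each KO library. Igtp fell by 0.52 ± 0.10 on the log2 scale (edgeR adjusted p = 0.000642) and Gbp3 by 0.45 ± 0.16 (edgeR adjusted p = 0.0431). In DESeq2 the adjusted p of Gbp3 was 0.216. Gbp3 lost its call without any 1 of the 4 libraries (edgeR adjusted p = 0.292 and 0.109 without WT replicates 1 and 2, and 0.0548 and 0.0947 without KO replicates 1 and 2). Gbp2, Gbp7 and Irgm1 had log2 fold changes of -0.22 ± 0.19, -0.26 ± 0.13 and -0.10 ± 0.09 (edgeR adjusted p = 0.406, 0.136 and 0.429).

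**Figure D2:**
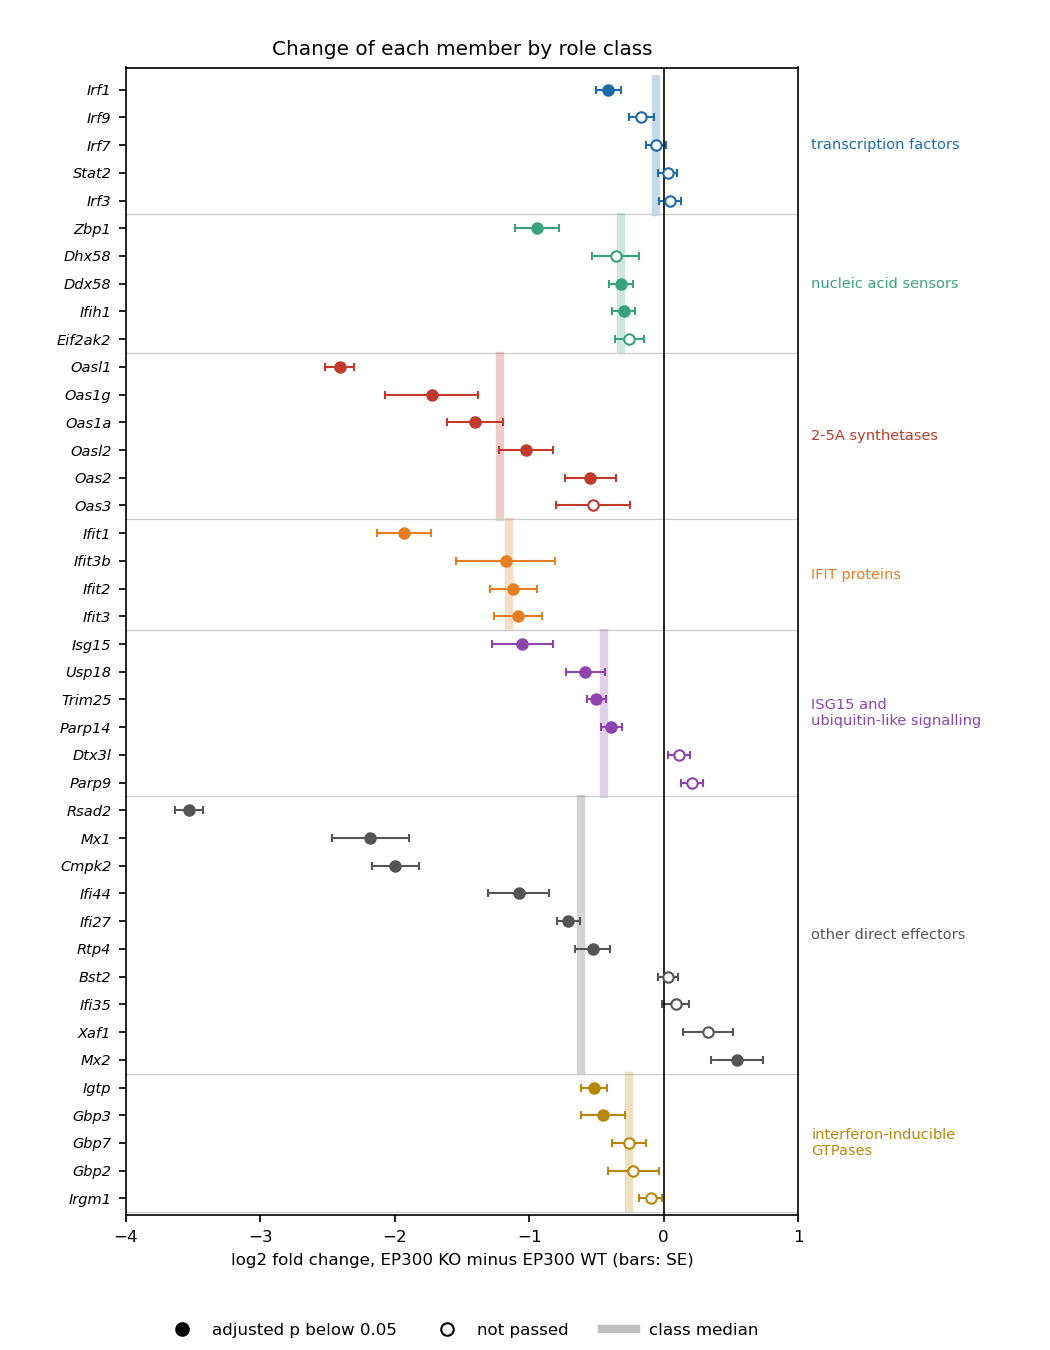
Log2 fold change (x axis, EP300 KO minus EP300 WT, bars show the SE) of each member, grouped by role, with filled points for genes that passed at an adjusted p below 0.05 and wide bars for class medians. The class medians lie at -1.21 for the oligoadenylate synthetases and -1.15 for the IFIT proteins, and at -0.06 for the transcription factors.

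Strongly and weakly expressed members were separated at the median per-length level of the 41 genes, 3.48 RPKM over the 4 libraries. Of the 21 strongly expressed members, 12 fell and 0 rose, with 3 falls of at least 2-fold, in Rsad2, Oasl1 and Isg15, and a median log2 fold change of -0.32. Of the 20 weakly expressed members, 13 fell and 1 rose, with 10 falls of at least 2-fold and a median of -0.98. Over all genes tested, 17.5% fell, 16.7% rose and 5.01% fell by at least 2-fold. The level over all 4 libraries contains the KO values, so a gene that fell is placed lower by its own change. Split by the WT libraries alone, a choice made after the data were seen, the medians were -0.39 for the strong and -0.56 for the weak members. The rank correlation across the 41 genes between level and log2 fold change was 0.32 (Spearman) with the level over all 4 libraries and 0.18 with the WT level. These genes share the 4 libraries and are not independent replicates.

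**Figure D3:**
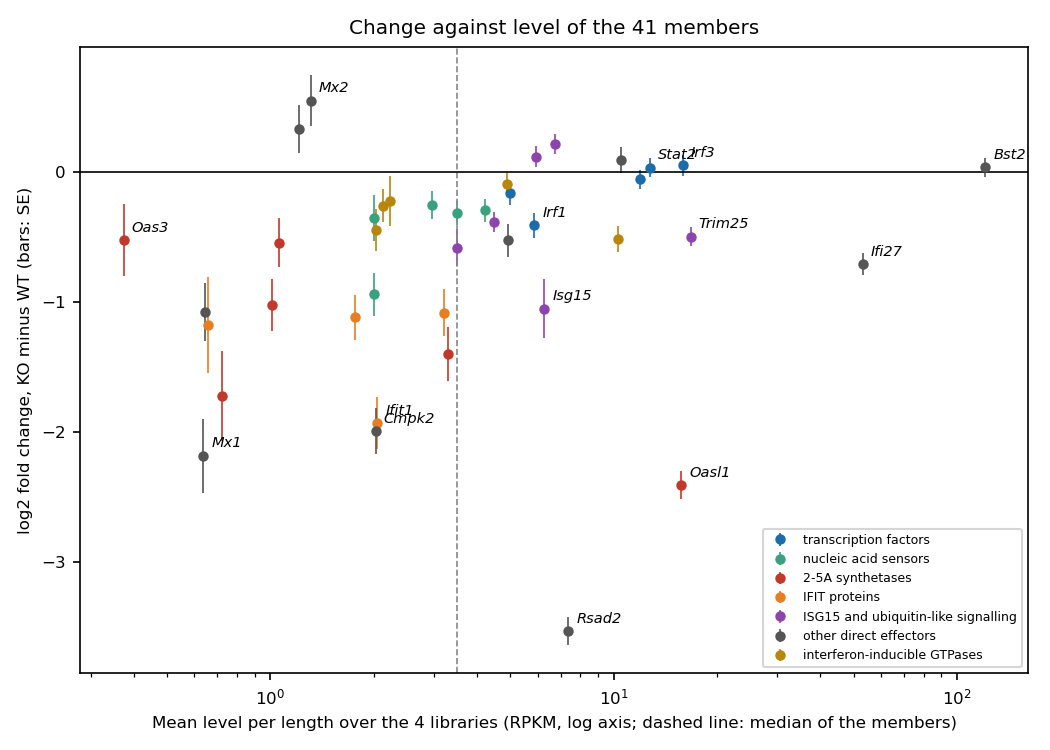
Log2 fold change of each member (y axis, EP300 KO minus EP300 WT, bars show the SE) against its mean level over the 4 libraries (x axis, RPKM, log axis), coloured by role, with a dashed line at the median level of 3.48 RPKM. Rsad2 and Oasl1 lie to the right of the line with changes of -3.53 and -2.41, and Bst2, the most abundant member, lies at 0.03.

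The promoters of the members were compared for the ISRE core, the element through which the textbook pathway induces such genes. The members were listed as interferon-stimulated genes, so the choice of the list already favours this element. The window ran from 250 bases before to 50 bases after each RefSeq start on the GRCm38.p6 build, and 31 of the 41 members had one. The core was searched as GAAANNGAAA on both strands, so that it also appears as TTTCNNTTTC. It was in the window of 18 of the 31 members (58.1%), against 402 of 10466 tested genes with a window (3.84%) and 1079 of 27025 genes in the table (3.99%). A GAS element, TTCNNNGAA, was in the window of 8 members (25.8%), against 8.39% of tested genes and 9.55% of all genes. The stretches below are those of the members with the largest falls whose window held a core, and of Stat2 as a transcription factor that did not pass. They are written 5′ to 3′ on the gene's strand, with the core in capitals.
Rsad2 (chr12:26456538-26456597, minus strand): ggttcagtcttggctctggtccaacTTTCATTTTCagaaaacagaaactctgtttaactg
Ifit1 (chr19:34640760-34640838, plus strand): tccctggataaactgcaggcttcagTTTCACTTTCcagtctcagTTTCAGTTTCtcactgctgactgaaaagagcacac
Oas1g (chr5:120887614-120887656, minus strand): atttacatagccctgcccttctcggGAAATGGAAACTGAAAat
Oas1a (chr5:120907526-120907570, minus strand): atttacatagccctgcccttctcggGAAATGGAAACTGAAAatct
Ifit3b (chr19:34607744-34607837, plus strand): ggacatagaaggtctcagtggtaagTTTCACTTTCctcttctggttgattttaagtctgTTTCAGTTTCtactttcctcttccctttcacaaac
Stat2 (chr10:128270251-128270310, plus strand): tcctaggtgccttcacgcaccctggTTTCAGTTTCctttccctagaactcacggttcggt

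The core began 120 bases before the start of Rsad2, and Ifit1 had 2 cores, at 104 and 85 bases before its start. In Oas1a and Oas1g the 2 cores overlap in the same run of capitals. Ifit3, at chr19:34583348-34583441, carried the same letters as the Ifit3b stretch. The core was in the windows of 7 of 12 members that fell by at least 2-fold and 4 of 6 that fell by less. It was also in those of 7 of 13 that did not pass, whose log2 fold changes were negative or positive. Members with a core had a median log2 fold change of -0.48 and those without one -0.41. Oasl1 and Cmpk2 had no core in this window, and Bst2 and Stat2, which did not pass, had one. A match describes the letters of the window and is not a measurement of binding.

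The layers above the members were looked at from the ligand down. Counts of calls in these layers, and in the wider list after them, stand beside 17.5% of all genes tested that fell and 16.7% that rose. All 21 interferon ligand genes looked up were too low to test: 20 had 0 counts in all 4 libraries, and Ifnk had 2 counts in KO replicate 1. In a library of this size, 0 counts allow up to 3 counts, which covers counting error only.

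Of the 9 receptor subunits and Janus kinases, 3 fell and 0 rose, with a median log2 fold change of -0.19. The count of falls was 5 with library size alone, 1 without WT replicate 1 and 2 without WT replicate 2 or KO replicate 2. Ifngr1, the ligand-binding chain of the interferon gamma receptor, had 76.3 and 78.7 CPM in the WT libraries and 32.4 and 34.1 CPM in the KO libraries, 43.0% of the WT level (log2 fold change -1.22 ± 0.07, edgeR adjusted p = 2.43e-09). Ifnlr1, the interferon lambda receptor chain, had 3.74 and 3.12 CPM in WT and 1.22 and 1.61 CPM in KO, and fell by 1.27 ± 0.28 (edgeR adjusted p = 0.00194, and 0.0557 without WT replicate 1). The type I receptor chains did not pass: Ifnar1 had 45.6 and 42.1 CPM in WT and 45.4 and 39.1 CPM in KO (edgeR adjusted p = 0.681), and Ifnar2 53.2 and 48.2 CPM against 45.2 and 47.8 CPM (edgeR adjusted p = 0.243). Jak2, the kinase of the interferon gamma receptor, fell by 0.30 ± 0.10 (edgeR adjusted p = 0.0336), a call lost without WT replicate 1, WT replicate 2 or KO replicate 2, where the adjusted p was 0.254, 0.142 and 0.113. Jak2 did not pass in DESeq2 (adjusted p = 0.187). The remaining log2 fold changes were -0.15 for Jak1, -0.19 for Ifngr2, -0.20 for Il10rb and 0.00 for Tyk2, none of which passed.

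Among 13 STAT and IRF factors and brakes outside the members that could be tested, 4 fell and 1 rose. Their median log2 fold change was -0.27, against -0.06 for the transcription factors among the members. The falls numbered 2 without WT replicate 1, 2 without WT replicate 2 and 7 with library size alone, and the rises 2 without KO replicate 1 and with the replicate block. Trim24, a repressor of the interferon response in mouse liver, fell by 0.47 ± 0.07 on the log2 scale (edgeR adjusted p = 6.32e-05), and Stat3 fell by 0.39 ± 0.06 (edgeR adjusted p = 0.000113). The other falls, named after their values were seen, were those of Pias1 (-0.38 ± 0.09, edgeR adjusted p = 0.00356) and Socs3 (-0.32 ± 0.08, edgeR adjusted p = 0.00576), both brakes on STAT signalling. Both were lost without either WT library, with an adjusted p of 0.0750 and 0.0726 for Pias1 and 0.0558 and 0.134 for Socs3 in edgeR. Of 13 upstream sensing and adaptor genes tested, 2 fell and 0 rose, against 17.5% and 16.7% of all genes tested. The falls were those of Traf3, a signalling adaptor (-0.35 ± 0.10, edgeR adjusted p = 0.0158), and Nod1, a sensor of bacterial cell wall (-0.33 ± 0.11, edgeR adjusted p = 0.0279). Neither passed in DESeq2 (adjusted p = 0.119 for Traf3 and 0.169 for Nod1). Each call was lost without either WT library, with an adjusted p of 0.117 and 0.145 for Traf3 and 0.222 and 0.128 for Nod1, and Nod1 also without KO replicate 2 (0.0925).

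A wider list of 93 other interferon-induced genes, gave 87 that could be tested. Of these, 33 fell and 2 rose, with a median log2 fold change of -0.24 (1 gene is also in the list of factors and brakes) and a range from -2.80 to 1.997. The 33 falls became 20 without WT replicate 1, 16 without WT replicate 2 and 14 with no filter on low counts. The 2 rises became 5 without KO replicate 1 and 1 without WT replicate 1, without WT replicate 2, with library size alone and with no filter. Cxcl10, the chemokine that draws CXCR3-bearing lymphocytes, had 19.3 and 17.4 CPM in the WT libraries and 1.97 and 3.28 CPM in the KO libraries, 14.3% of the WT level (log2 fold change -2.80 ± 0.18, edgeR adjusted p = 4.94e-09). Gbp11, another guanylate-binding protein gene, went the other way, with 7.11 and 8.26 CPM in WT and 31.4 and 30.0 CPM in KO (log2 fold change 1.997 ± 0.11, edgeR adjusted p = 9.61e-10). For both genes the groups were far apart. Ms4a4c, a membrane protein gene, had 16 and 17 counts in WT and 5 and 3 in KO, and its fall of 1.87 ± 0.54 (edgeR adjusted p = 0.0137) was lost without WT replicate 1, WT replicate 2 or KO replicate 2 (0.103, 0.118 and 0.124).

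**Figure D4:**
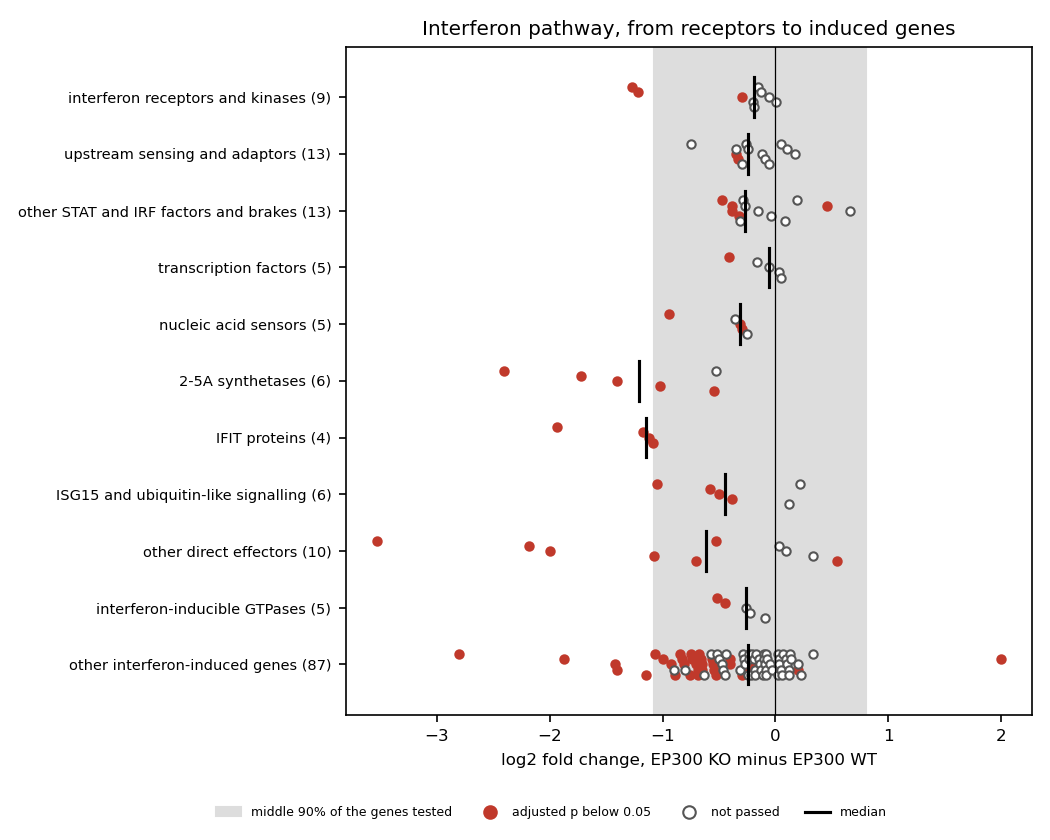
Log2 fold change (x axis, EP300 KO minus EP300 WT) of every tested gene in each layer of the interferon pathway, with the number tested in brackets, filled points for genes that passed at an adjusted p below 0.05, and a vertical line at each layer's median. The grey band is the middle 90% of all genes tested, and Cxcl10 at -2.80 and Gbp11 at 1.997 lie outside it.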

How the data were processed

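RNA was extracted from sorted mouse liver cells and made into libraries with a TruSeq kit, per the labels' protocols. The authors deposited a table of raw counts per Ensembl gene. STAR, HTSeq, DESeq2 and the mm10 build appear in the submitters' processing notes, with neither role nor version; the gene annotation and strand setting are not given in the sources used here. Of its columns, 4 match no sample of the series and were not used. Symbols, coordinates, exon lengths and RPKM came from GENCODE M21, which gave a symbol to 55144 of the 55385 identifiers.

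The members, role classes and pathway lists were chosen with earlier results of these data known. Counts were tested in edgeR 4.0.16 (R 4.3.3), after a filter on low counts (filterByExpr, minimum 10), with TMM scaling, the quasi-likelihood test of the 2 EP300 KO against the 2 EP300 WT libraries, and Benjamini-Hochberg adjustment over all 14200 genes at 0.05. Each SE is the absolute log2 fold change over the root of its F statistic. The code was tested on simulated counts. Values in every library are given for all transcription factors, the 3 largest changes that passed in each other class, the 3 highest per-length levels and any member that rose. Alternatives were DESeq2 1.42.0, limma 3.58.1 (voom), other scalings and filters, each library left out, and a replicate block. Same-numbered libraries did not deviate together (correlation 0.00610), so the numbers were not treated as pairs. Some genes of the pathway lists are counted in them but not reported here by name.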

Additional observations from a re-analysis of the deposited data

How the results depend on the processing

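The count of 25 members that fell was 25 or 26 under DESeq2's size factors, library size alone, a minimum of 1 CPM, voom and without the 20 most abundant genes. It was 20 in DESeq2 and 20 at an adjusted p below 0.01, and in both Ddx58, Ifih1, Oas2, Ifit3b and Gbp3 lost their call. It was 16 with no filter on low counts, where 24666 genes were tested, and 16 to 25 with each library left out in turn (17 without WT replicate 1 and 16 without WT replicate 2). The count of 1 that rose was 2 with DESeq2's size factors and without the 20 most abundant genes, 0 with library size alone, no filter, DESeq2 and an adjusted p below 0.01, and 0 to 1 with a library left out. The replicate block gave 25 falls and a median log2 fold change of -0.50. The members' median ranged from -0.50 to -0.43 with a library left out. For the strongly expressed members the median was -0.38 with library size alone, -0.39 when split by WT level and -0.37 to -0.32 with a library left out. For the weakly expressed members it was -0.56 when split by WT level and -0.99 to -0.79 with a library left out. Library size alone moved the median of all genes to -0.07. It also turned the sign of 3 members that did not pass, Irf3 (-0.0166), Stat2 (-0.0347) and Bst2 (-0.0316). With a library left out, these log2 fold changes ranged from -0.0701 (without KO replicate 2) to 0.176 for Irf3, from -0.0175 (without WT replicate 2) to 0.100 for Stat2, and from -0.0600 (without WT replicate 1) to 0.154 for Bst2; without KO replicate 2 Stat2 was at -0.0157 and Bst2 at -0.00638. The cause was not tested. With 2 libraries a group, a call can rest on 1 library, and genes with few counts have the widest errors.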
